A study of Saccharomyces cerevisiae with 7 samples.

Results

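The genes described here are 6 regulators of the budding yeast phosphate (PHO) response, *PHO81*, *PHO80*, *PHO85*, *PHO4*, *PHO2* and *PHO23*, taken by name from the 5110 genes counted in each library. They were read beside *PHO84*, the high-affinity phosphate transporter that served as the output of the pathway. RNA-seq libraries of 7 genotypes were analysed, with 1 library each, made from single colony isolates grown in YPD, a rich glucose medium, to midlog phase. The survey held 5 of them in the MATa laboratory strain BY4741, namely wild type and its deletion mutants *Δfpr3*, *Δfpr4*, *Δfpr3Δfpr4* and *Δsir2*. The other 2, *Δfpr3Δtrf5* and *Δfpr3Δfpr4Δtrf5*, were haploid MATa progeny of a cross between the Y7092 query strain and a strain of the deletion collection, so both carry deletions of *FPR3* and *TRF5*, and the latter also lacks *FPR4*. Fpr3 and Fpr4 are paralogous nucleolar prolyl isomerases that act as histone chaperones, Sir2 is a histone deacetylase, and Trf5 is a poly(A) polymerase of the TRAMP complex, which feeds RNA to the nuclear exosome.

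In the PHO pathway, Pho80 is the cyclin and Pho85 the cyclin-dependent kinase of a complex that phosphorylates the transcription factor Pho4 when phosphate is plentiful. Phosphorylated Pho4 is exported from the nucleus and its target genes stay low. When phosphate is scarce, the kinase inhibitor Pho81 blocks Pho80-Pho85, and Pho4 binds the promoters of its targets, at many of them together with the homeodomain protein Pho2. The targets encode phosphate transporters, secreted acid phosphatases and the polyphosphate synthase, and include *PHO81* itself. Pho23 is a PHD finger subunit of Rpd3L, a histone deacetylase complex.

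Counted reads per library ranged from 627679, in *Δfpr3Δfpr4Δtrf5*, to 1242534, in *Δsir2*. Each deleted gene had 0 reads in its own libraries, except *TRF5* with 2 reads in *Δfpr3Δfpr4Δtrf5*. *LEU2*, which replaced *FPR3* in the cross, had 70 and 35 reads in its 2 progeny libraries and 0 in the 5 survey libraries. *URA3*, the marker of a plasmid that carried *FPR4* during the cross, had 0 reads in all 7. *FPR4* itself had 186 reads in *Δfpr3Δtrf5* and 0 in *Δfpr3Δfpr4Δtrf5*, and how it is carried in the former isolate is not given in the sources used here. The 6 listed MATa-specific genes summed to between 1603 and 2054 reads in 6 libraries and to 18 reads in *Δsir2*, with *MFA1*, *MFA2* and *AGA2* at 0 there. With 1 library per genotype there is no replicate check within these data, so each test compares 2 libraries and not 2 conditions, and each interval covers counting error only. Apart from these libraries, the study reports that quantitative PCR on independent biological replicates verified its survey results for *PHO84* and the acid phosphatase gene *PHO5*, relative to wild type. It describes no such check of these genes in the *Δtrf5* strains.

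The Pho4 binding letters upstream of *PHO81* and *PHO84* are shown because the results below turn on these genes. The letters CACGTG, which read the same on both strands, were searched in the 500 bases before each start codon. The related form CACGTT was searched on both strands of the same windows. The forms share all but the last base, so no match of one can lie on a match of the other on the same strand. Of 5092 such windows in the genome, 6.34% held CACGTG and 16.4% held CACGTT. A match to CACGTG stood once before *PHO81* and at 2 places before *PHO84*, and before none of the other 5 regulators. CACGTT stood once each before *PHO80*, *PHO81*, *PHO84*, *PHO85* and *PHO23*, and before neither *PHO4* nor *PHO2*. The stretches below are reference sequence (RefSeq, R64, the build called sacCer3), on the coding strand, with the matches in capitals. The last capitals of the *PHO84* stretch are the related form read from the other strand. The stretches end 281 bases before the *PHO81* start codon and 231 bases before that of *PHO84*.
PHO81, chrVII:958491-958610, minus strand: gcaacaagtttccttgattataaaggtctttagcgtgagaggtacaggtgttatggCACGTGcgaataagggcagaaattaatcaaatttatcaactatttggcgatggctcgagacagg
PHO84, chrXIII:26031-26250, minus strand: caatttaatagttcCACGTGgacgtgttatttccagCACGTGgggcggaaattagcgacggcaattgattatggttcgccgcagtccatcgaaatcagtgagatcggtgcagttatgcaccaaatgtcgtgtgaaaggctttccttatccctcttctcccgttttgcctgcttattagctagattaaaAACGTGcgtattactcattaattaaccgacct
The match of *PHO81* to the related form lies 8 to 3 bases before its start codon and is outside the stretch shown.

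The output gene was read first. *PHO84* (YML123C, chromosome XIII, 24037 to 25800, minus strand) had 888 reads in wild type, 2365 in *Δfpr3*, 3062 in *Δfpr4*, 2096 in *Δfpr3Δfpr4*, 4329 in *Δsir2*, 1377 in *Δfpr3Δtrf5* and 76 in *Δfpr3Δfpr4Δtrf5*. Expressed as RPKM (reads per kilobase of gene, scaled to the total of counted reads), these were 461, 1227, 1509, 1177, 1975, 953 and 68.6. The *Δfpr3Δfpr4Δtrf5* library was thus the lowest, wild type the next, and the remaining 5 lay above both. The order of levels was resolved at 5 of its 6 steps, the exception being *Δfpr3* beside *Δfpr3Δfpr4*. RNA came from whole cultures, so a change in every cell and a change in the share of cells that express a gene cannot be told apart. *PHO84* is overlapped on the opposite strand by an annotated antisense RNA. The study's methods count reads on the proper strand, while the library kits named there are not described as marking strand, so the part of antisense RNA in the *PHO84* count was not tested. None of the 6 regulators overlaps another annotated gene, and no stretch of 50 bases in them occurs elsewhere in the genome.

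*PHO81* varied most among the regulators. It was higher in 3 of the 4 survey mutants than in wild type, by 1.40-fold to 1.83-fold, and 2.87-fold lower in *Δfpr3Δfpr4Δtrf5* than in *Δfpr3Δtrf5*, in each case in the direction of *PHO84*. *PHO4* was lower in *Δfpr3* and in *Δfpr3Δfpr4*, *PHO85* was lower in *Δfpr3*, and *PHO2* was lower in *Δfpr3Δfpr4*. *PHO80* and *PHO23* passed the rule in none of the 5 comparisons. A difference was called where a chi-square test of the gene's reads against all other reads of the 2 libraries gave an adjusted p under 0.05 (Benjamini-Hochberg adjustment over every gene that had more than 5 reads when both libraries were summed) and RPKM + 1 differed at least 1.3-fold. Log2 fold changes are those of RPKM + 1.

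**Figure D1:**
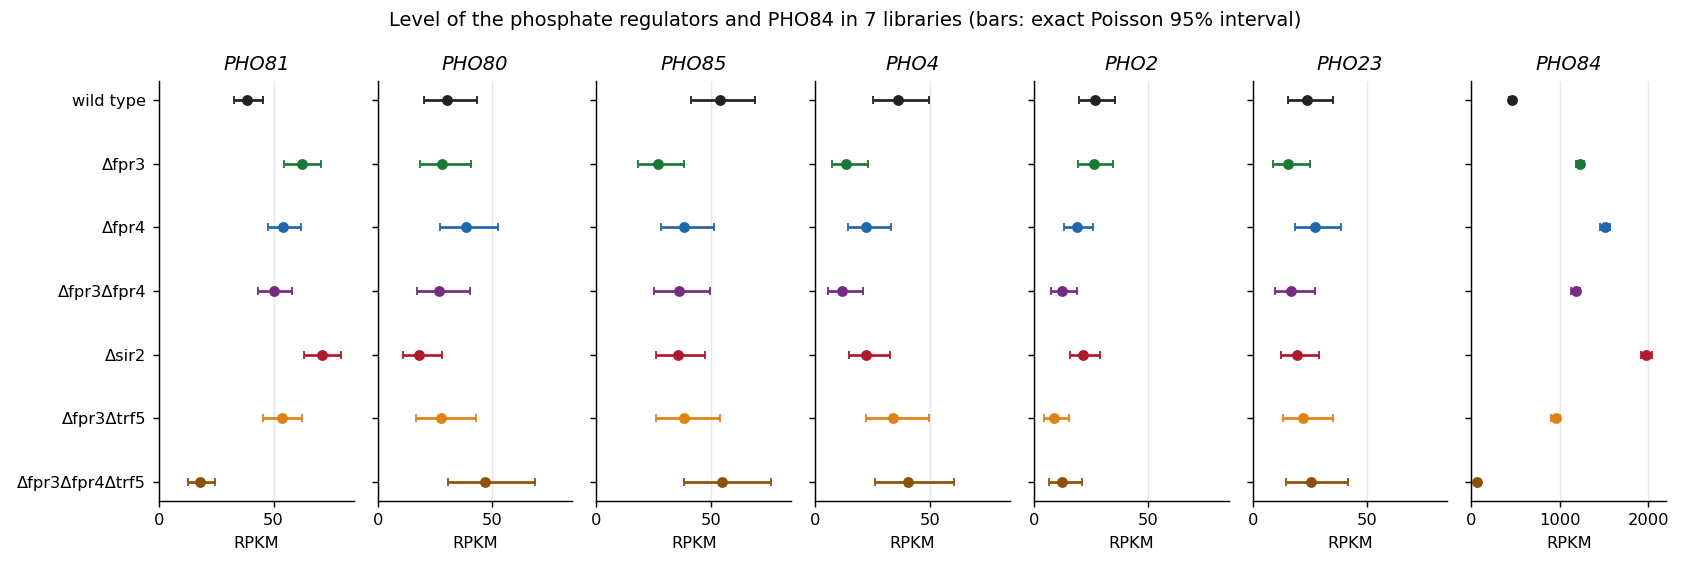
Level of each regulator and of *PHO84* (horizontal axis, RPKM, with its own scale for *PHO84*) in each of 7 libraries (vertical axis, 1 library per genotype). Points are single libraries and bars the exact Poisson 95% interval of the reads, which covers counting error only. *PHO81* and *PHO84* are both lowest in *Δfpr3Δfpr4Δtrf5* and highest in *Δsir2*, while the intervals of *PHO23* overlap in all 7 libraries.

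*PHO81* (YGR233C, chromosome VII, 954674 to 958210, minus strand) encodes the kinase inhibitor. It had 149 reads in wild type, 241 in *Δfpr3*, 221 in *Δfpr4*, 179 in *Δfpr3Δfpr4*, 313 in *Δsir2*, 155 in *Δfpr3Δtrf5* and 40 in *Δfpr3Δfpr4Δtrf5*. As RPKM these were 38.5, 62.4, 54.3, 50.1, 71.2, 53.5 and 18.0. Wild type stood below the 4 other survey libraries and *Δfpr3Δfpr4Δtrf5* below all others, as they did for *PHO84*. Of the 6 steps in the order of levels, 2 were resolved by their 95% intervals, that from *Δfpr3Δfpr4* to wild type and that from wild type to *Δfpr3Δfpr4Δtrf5*. Among the 21 pairs of libraries, 15 were resolved.

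Against wild type, *PHO81* rose by 0.68 on the log2 scale in *Δfpr3* (95% interval 0.39 to 1.0, adjusted p = 8.95e-05, chi-square test with Benjamini-Hochberg adjustment). It rose by 0.48 in *Δfpr4* (0.19 to 0.80, adjusted p = 0.011 by the same chi-square test) and by 0.87 in *Δsir2* (0.60 to 1.18, adjusted p = 8.56e-09 by the same chi-square test). In *Δfpr3Δfpr4* the difference of 0.37 (0.06 to 0.70) was not called, with an adjusted p of 0.0775 in the chi-square test. It was called there when libraries were scaled by median-of-ratios size factors, at 0.46 and an adjusted chi-square p of 0.0239. All of these rises rest on the single wild-type library, which the 4 survey comparisons share. With the *Δsir2* library as the reference in its place, *PHO81* stood at -0.19 in *Δfpr3*, -0.38 in *Δfpr4* and -0.50 in *Δfpr3Δfpr4*, and *PHO84* at -0.69, -0.39 and -0.75. *Δsir2* was the highest library for both genes, so these values could only be negative and do not test the rises over wild type. The 6 MATa-specific genes summed to 18 reads in *Δsir2*, 1603 in *Δfpr3*, 1856 in *Δfpr4* and 1769 in wild type, and their part in the *PHO81* levels was not tested.

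*PHO80* (YOL001W, chromosome XV, 325249 to 326130, plus strand), the cyclin, had 29 reads in wild type, 27 in *Δfpr3*, 39 in *Δfpr4*, 24 in *Δfpr3Δfpr4*, 20 in *Δsir2*, 20 in *Δfpr3Δtrf5* and 26 in *Δfpr3Δfpr4Δtrf5*. Its RPKM in the same order was 30.1, 28.01, 38.5, 27.0, 18.2, 27.7 and 47.0. The highest library was *Δfpr3Δfpr4Δtrf5*, where *PHO81* and *PHO84* were lowest, and the lowest was *Δsir2*, where they were highest. At this depth only the pairs of *Δsir2* with *Δfpr3Δfpr4Δtrf5* and with *Δfpr4* were resolved, 2 of 21. No comparison was called, and the values ran from -0.69 in *Δsir2* (95% interval -1.62 to 0.15) to 0.74 in *Δfpr3Δfpr4Δtrf5* against *Δfpr3Δtrf5* (-0.13 to 1.68).

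*PHO85* (YPL031C, chromosome XVI, 492018 to 493037, minus strand) encodes the kinase, which also acts with 9 other cyclins described below. Its reads numbered 60 in wild type, 30 in *Δfpr3*, 45 in *Δfpr4*, 37 in *Δfpr3Δfpr4*, 45 in *Δsir2*, 32 in *Δfpr3Δtrf5* and 35 in *Δfpr3Δfpr4Δtrf5*. The RPKM values were 53.8, 26.9, 38.4, 35.9, 35.5, 38.3 and 54.7, over a gene length of 1020 bases that includes an intron of 102 bases. Wild type and *Δfpr3Δfpr4Δtrf5* were the highest libraries, and these were the 2 lowest for *PHO84*. No neighbouring libraries in the order were resolved. Of the 21 pairs 3 were, namely *Δfpr3* with wild type and with *Δfpr3Δfpr4Δtrf5*, and *Δsir2* with wild type. *PHO85* fell by 0.97 on the log2 scale in *Δfpr3* (95% interval -1.68 to -0.34, adjusted p = 0.0153, chi-square test). The other survey mutants had values of -0.48, -0.57 and -0.59, which were not called. With *Δsir2* as the reference, the value in *Δfpr3* was -0.39 and was not called either.

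*PHO4* (YFR034C, chromosome VI, 225020 to 225958, minus strand), which encodes the transcription factor, had 37 reads in wild type, 14 in *Δfpr3*, 24 in *Δfpr4*, 11 in *Δfpr3Δfpr4*, 26 in *Δsir2*, 26 in *Δfpr3Δtrf5* and 24 in *Δfpr3Δfpr4Δtrf5*. As RPKM these were 36.0, 13.6, 22.2, 11.6, 22.3, 33.8 and 40.7. The activator's own transcript was lowest in *Δfpr3* and *Δfpr3Δfpr4*, whose *PHO84* levels were above wild type. It was highest in the library with the least *PHO84*. No neighbouring libraries in this order were resolved, and 7 of the 21 pairs were. *Δfpr3Δtrf5*, whose *PHO84* level was also above wild type, was not resolved from wild type for *PHO4*. *PHO4* fell by 1.34 on the log2 scale in *Δfpr3* (95% interval -2.40 to -0.48, adjusted p = 0.0133, chi-square test), or 2.53-fold. In *Δfpr3Δfpr4* it fell by 1.55 (-2.76 to -0.63, adjusted p = 0.00528, chi-square test), or 2.94-fold. The values of -0.67 in *Δfpr4* and -0.67 in *Δsir2* were not called. Neither call was kept against *Δsir2* as the reference, where the values were -0.67 and -0.88. The *PHO4* level in *Δfpr3Δtrf5* was also resolved from that in *Δfpr3* (33.8 against 13.6 RPKM), although both strains lack *FPR3*, the former coming from the cross and the latter from the survey.

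*PHO2* (YDL106C, chromosome IV, 270222 to 271901, minus strand), the homeodomain partner of Pho4, had 49 reads in wild type, 48 in *Δfpr3*, 36 in *Δfpr4*, 21 in *Δfpr3Δfpr4*, 45 in *Δsir2*, 12 in *Δfpr3Δtrf5* and 13 in *Δfpr3Δfpr4Δtrf5*. The RPKM values were 26.7, 26.1, 18.6, 12.4, 21.6, 8.72 and 12.3. Wild type and *Δfpr3* were nearly level at the top, and the 3 libraries with more than 1 of these deletions were at the bottom. *PHO2* fell by 1.05 on the log2 scale in *Δfpr3Δfpr4* (95% interval -1.92 to -0.34, adjusted p = 0.0194, chi-square test), or 2.07-fold. Neither single mutant was called, with values of -0.03 and -0.50, and the value against *Δsir2* as the reference was -0.75 and not called. No neighbouring libraries in the order were resolved, but 9 of the 21 pairs were.

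*PHO23* (YNL097C, chromosome XIV, 441366 to 442358, minus strand), the Rpd3L subunit, had 26 reads in wild type, 17 in *Δfpr3*, 31 in *Δfpr4*, 17 in *Δfpr3Δfpr4*, 24 in *Δsir2*, 18 in *Δfpr3Δtrf5* and 16 in *Δfpr3Δfpr4Δtrf5*. As RPKM these were 23.9, 15.7, 27.1, 17.0, 19.4, 22.1 and 25.7. None of the 21 pairs of libraries was resolved. The values in the 5 comparisons ran from -0.58 (95% interval -1.59 to 0.32), in *Δfpr3*, to 0.21, and these counts would not show changes smaller than those intervals.

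The calls of the 6 regulators were set beside the share of all tested genes called in the same direction, as a description with no test. In *Δfpr3*, 1 of 6 was higher, where 4.19% of all genes were, and 2 were lower, where 8.07% of all genes were. In *Δfpr4*, 1 was higher and 0 lower, where 3.87% and 9.27% of all genes were. In *Δfpr3Δfpr4*, 0 were higher and 2 lower, where 5.07% and 9.36% of all genes were. In *Δsir2*, 1 was higher and 0 lower, where 5.20% and 14.6% of all genes were. In *Δfpr3Δfpr4Δtrf5* against *Δfpr3Δtrf5*, 0 were higher and 1 lower, where 20.7% and 7.42% of all genes were. In either direction, 3, 1, 2, 1 and 1 of the 6 regulators were called in the 5 comparisons in this order, beside 12.3%, 13.1%, 14.4%, 19.8% and 28.1% of all tested genes. Over all tested genes the log2 fold change had a median of -0.10, -0.10, -0.09 and -0.13 in the 4 survey comparisons and 0.20 in the last, and no call of a regulator was lost when this median was set to 0.

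**Figure D2:**
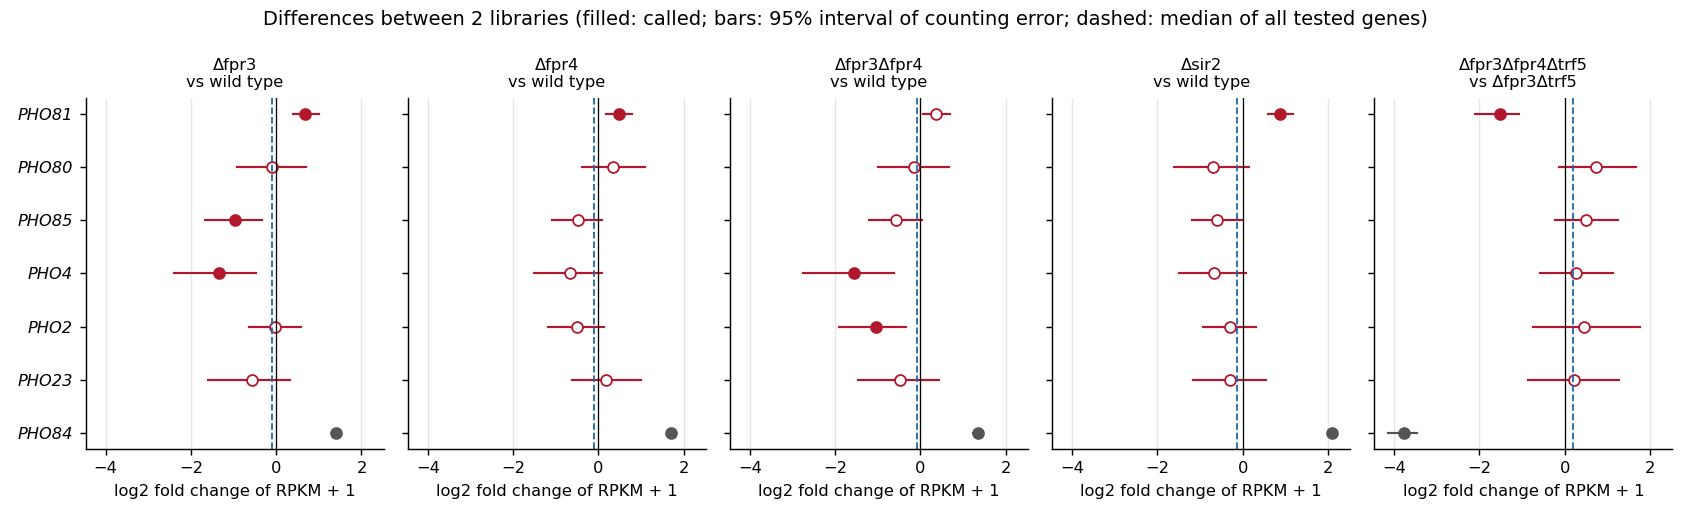
Log2 fold change of RPKM + 1 (horizontal axis) of each regulator and *PHO84* (vertical axis) in 5 comparisons of 2 libraries, with filled points for called differences, bars for the 95% interval of counting error and a dashed line at the median of all tested genes. *PHO81* lies on the same side of 0 as *PHO84* in all 5 panels. *PHO85*, *PHO4* and *PHO2* lie on the other side of 0 in all 5, with most of their points not called. Some of these points lie near the dashed line. With the median set to 0, *PHO2* in *Δfpr3* moves from -0.03 to 0.08, the side of *PHO84*. *PHO4* in the last panel moves from 0.26 to 0.06.

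Over all 7 libraries together, 4 of the 6 regulators varied by more than counting error in a chi-square test of homogeneity with 6 degrees of freedom. Of all 4494 genes tested in the same way, 71.5% did, so that varying was the rule and not a mark of these genes. The chi-square per degree of freedom, which is near 1 where counting error alone acts, was 17.1 for *PHO81*, a value above that of 88.8% of genes. It was 4.41 for *PHO4* and 4.24 for *PHO2*, beside a median of 3.65 over all genes. *PHO85* was at 2.48 (adjusted p = 0.0318, chi-square test), *PHO80* at 2.23 (adjusted p = 0.0522, chi-square test) and *PHO23* at 0.911 (adjusted p = 0.509, chi-square test). *PHO84* was at 589. *PHO85* no longer passed without the wild-type library (adjusted p = 0.156, chi-square test), in the 5 survey libraries (0.0505) or with median-of-ratios scaling (0.161), whereas *PHO80* passed without the wild-type library (0.0323).

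The balance of the inhibitor and its targets was also read within each library, where no scaling between libraries enters. The RPKM of *PHO81* divided by that of *PHO85* was 0.716 in wild type (95% interval 0.527 to 0.983), 2.32 in *Δfpr3* (1.58 to 3.51), 1.42 in *Δfpr4* (1.02 to 2.0), 1.40 in *Δfpr3Δfpr4* (0.975 to 2.05), 2.01 in *Δsir2* (1.46 to 2.81), 1.40 in *Δfpr3Δtrf5* (0.95 to 2.11) and 0.330 in *Δfpr3Δfpr4Δtrf5* (0.204 to 0.534). The kinase transcript exceeded that of its inhibitor in wild type and in *Δfpr3Δfpr4Δtrf5*, and these intervals lay below 1. The intervals of *Δfpr3*, *Δfpr4* and *Δsir2* lay above 1 and those of the other 2 libraries included 1. For *PHO81* over *PHO80*, the ratio was 1.28 in wild type (0.856 to 1.98), 3.90 in *Δsir2* (2.48 to 6.48) and 0.384 in *Δfpr3Δfpr4Δtrf5* (0.228 to 0.655), with the 4 other libraries between 1.41 and 2.23. The genes differ in length, with 3537 bases for *PHO81*, 1020 for *PHO85* and 882 for *PHO80*. The study reports a widespread shift of reads toward the starts of genes in *Δfpr3Δfpr4Δtrf5*, and the part of gene length in these ratios was not tested.

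The transcript of the activator was set against those of the cyclin and of its partner in the same way. *PHO4* over *PHO80* was 1.2 in wild type (0.717 to 2.02) and lay below 1, with intervals that excluded 1, in *Δfpr3* (0.487, 0.236 to 0.962), *Δfpr4* (0.578, 0.333 to 0.986) and *Δfpr3Δfpr4* (0.431, 0.190 to 0.913), although each of these intervals overlapped that of wild type. *PHO4* over its partner *PHO2* was 1.35 in wild type (0.857 to 2.11), 0.522 in *Δfpr3* (0.266 to 0.962), 3.88 in *Δfpr3Δtrf5* (1.89 to 8.43) and 3.30 in *Δfpr3Δfpr4Δtrf5* (1.62 to 7.06). The 2 libraries of the cross thus held more *PHO4* than *PHO2* transcript per length.

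Across the 7 libraries, Pearson's r of log2(RPKM + 1) with *PHO84* was 0.98 for *PHO81* (Spearman's rho 0.93). It was -0.76 for *PHO85* (rho -0.71), -0.73 for *PHO80* (rho -0.54), -0.64 for *PHO4* (rho -0.64), -0.46 for *PHO23* (rho -0.29) and 0.26 for *PHO2* (rho 0.29). These are descriptions of 7 libraries that differ in genotype, cross and depth, with no test. The libraries farthest from the median of *PHO84* were *Δfpr3Δfpr4Δtrf5* and wild type. Without them, over 5 libraries, r was 0.72 for *PHO81*, 0.67 for *PHO2*, 0.14 for *PHO23*, 0.03 for *PHO85*, -0.05 for *PHO4* and -0.41 for *PHO80*. The negative relations of *PHO85* and *PHO4* with *PHO84* therefore rested on those 2 libraries, while *PHO81* kept a positive r within the remaining 5.

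**Figure D3:**
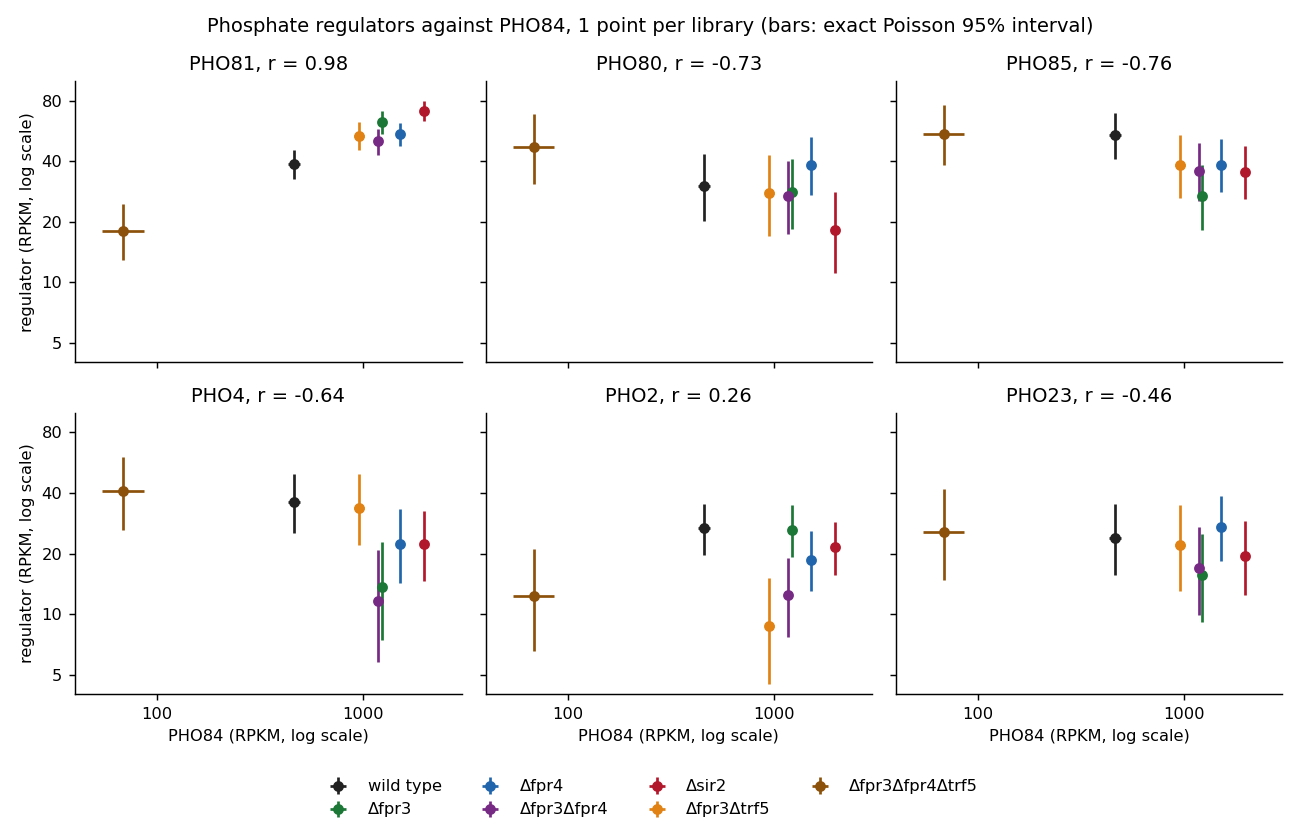
Level of each regulator (vertical axes, RPKM, log scale) against *PHO84* (horizontal axes, RPKM, log scale), 1 point per library, with exact Poisson 95% intervals as bars and Pearson's r of log2(RPKM + 1) over 7 libraries above each panel. *PHO81* follows *PHO84* from the low library, *Δfpr3Δfpr4Δtrf5*, to the high one, *Δsir2*. *PHO4* and *PHO85* have their highest points in the 2 libraries with the least *PHO84*. *PHO4* is nearly as high in *Δfpr3Δtrf5*, and most pairs of libraries are not resolved for either gene.

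Among 3779 genes with a mean of at least 20 reads, the 3 whose levels were most like those of *PHO81* over the 7 libraries were *VTC4* (r = 0.993), *VTC3* (r = 0.992) and *PHO84* (r = 0.984). *VTC4* and *VTC3* encode the catalytic and a further subunit of the vacuolar polyphosphate synthase. *VTC3* had 123 RPKM in wild type, 331 in *Δfpr3*, 330 in *Δfpr4*, 282 in *Δfpr3Δfpr4*, 464 in *Δsir2*, 262 in *Δfpr3Δtrf5* and 25.4 in *Δfpr3Δfpr4Δtrf5*. Seen from *PHO84*, *PHO81* was the gene in place 4 of 3779, behind *VTC3*, the adenylate kinase gene *ADK1* and *VTC4*. The other regulators were not among the genes most like *PHO84*, their places being 987 for *PHO2*, 2387 for *PHO23*, 2911 for *PHO4*, 3169 for *PHO80* and 3277 for *PHO85*.

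The genes most like *PHO2* were *DOT6*, a repressor of ribosome biogenesis genes (r = 0.980), the chromatin remodeller gene *CHD1* (r = 0.975) and *PEX3*, needed to form peroxisomes (r = 0.972). Those most like *PHO4* were *GTT1*, a glutathione transferase (r = 0.937), *CAF4*, of the mitochondrial fission machinery (r = 0.934), and *PPN1*, a vacuolar polyphosphatase (r = 0.921). Those most like *PHO85* included *BUD8*, a bud site marker (r = 0.970), and the MAP kinase gene *KSS1* (r = 0.965). *PHO4* and *PHO85* resembled each other with r = 0.81, at place 75 and 84 of 3779 in each other's order. With 7 libraries and 3779 genes, high values of r arise for many genes.

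The other genes of the pathway were counted in lists, and each count stands beside the share of all tested genes called, which was 4.19%, 3.87%, 5.07%, 5.20% and 20.7% higher and 8.07%, 9.27%, 9.36%, 14.6% and 7.42% lower in the 5 comparisons in the order used above. Of 17 listed targets of Pho4, *PHO84* among them and *PHO81* counted apart, 13 were higher and 0 lower in *Δfpr3*, 13 and 0 in *Δfpr4*, 12 and 0 in *Δfpr3Δfpr4*, and 13 and 0 in *Δsir2*. Their median log2 fold changes were 1.22, 1.12, 0.98 and 1.18. In *Δfpr3Δfpr4Δtrf5* against *Δfpr3Δtrf5*, 1 was higher and 14 were lower, with a median of -2.18, beside a median of 0.20 over all genes. Their summed share of all counted reads was 0.245% in wild type, 0.591% in *Δfpr3*, 0.603% in *Δfpr4*, 0.501% in *Δfpr3Δfpr4*, 0.753% in *Δsir2*, 0.473% in *Δfpr3Δtrf5* and 0.108% in *Δfpr3Δfpr4Δtrf5*. The *PHO81* level had the same lowest, second lowest and highest library. These counts hold for the listed genes only, and the list leaves out the polyphosphatase gene *PPN1* named above. *PPN1* had 158 reads in wild type, 98 in *Δfpr3*, 125 in *Δfpr4*, 86 in *Δfpr3Δfpr4* and 151 in *Δsir2*. It had 114 in *Δfpr3Δtrf5* and 77 in *Δfpr3Δfpr4Δtrf5*. Whether *PPN1* belongs among the targets of Pho4 was not tested.

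Among these targets, the secreted acid phosphatase gene *PHO5* had 27 reads in wild type, between 122 and 318 in the 4 survey mutants, 78 in *Δfpr3Δtrf5* and 11 in *Δfpr3Δfpr4Δtrf5*. *PHO11*, a near-identical copy of *PHO12*, had 0 reads in wild type and in *Δfpr3Δfpr4Δtrf5* and between 30 and 63 in the 5 other libraries. The study's methods drop reads that align to several places, so the counts of both copies leave out reads that fit either. *SPL2*, which restrains low-affinity phosphate uptake, had 15 reads in wild type, 86 to 168 in the survey mutants, 38 in *Δfpr3Δtrf5* and 3 in *Δfpr3Δfpr4Δtrf5*. *PHM6*, whose function is not known, had 4 reads in wild type, 9 to 26 in the survey mutants, 17 in *Δfpr3Δtrf5* and 0 in *Δfpr3Δfpr4Δtrf5*. *PHO12* itself had 43 reads in wild type and 13 in *Δfpr3Δfpr4Δtrf5*, below the 108 to 250 of the others. These 5 genes were named by a rule that takes called genes. Of all 17 targets, 12 had a lower RPKM in wild type and in *Δfpr3Δfpr4Δtrf5* than in every other library, as *PHO81* had, and the 5 exceptions were *VTC2*, *PHM8*, *GIT1*, *GDE1* and *CTF19*. Among the 4494 genes tested for homogeneity, 2.36% had this pattern, which was counted after it had been seen in the named genes. The 1 target called higher in *Δfpr3Δfpr4Δtrf5* was *PHM8*, a phosphatase gene named here after its values were seen, with 14 reads in *Δfpr3Δtrf5* and 69 in *Δfpr3Δfpr4Δtrf5*.

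**Figure D4:**
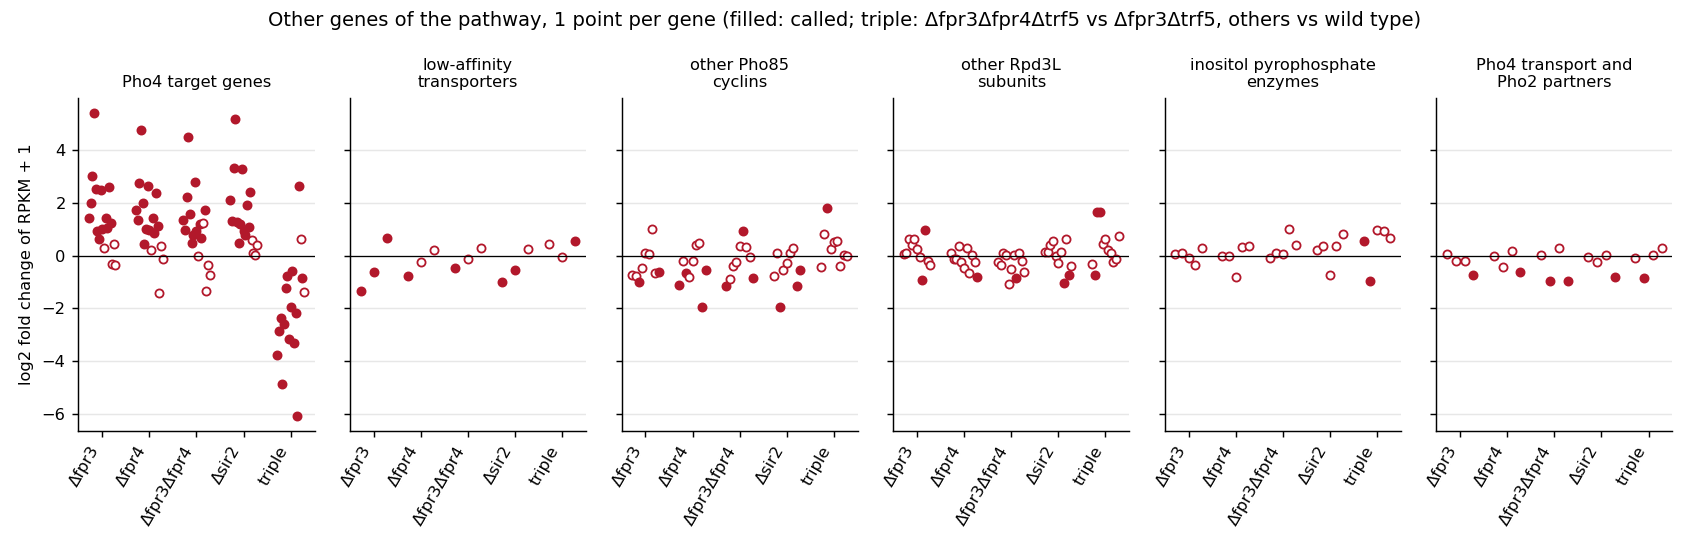
Log2 fold change of RPKM + 1 (vertical axis) of each gene in 6 lists of the pathway, in 4 survey mutants against wild type and in *Δfpr3Δfpr4Δtrf5* against *Δfpr3Δtrf5* (marked triple), with filled points for called differences. Of 17 listed Pho4 targets, 13, 13, 12 and 13 were called higher in the survey mutants and 14 lower in the last comparison. The other lists lie nearer to 0.

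Of the 3 genes listed as low-affinity transporters, *PHO87* and *PHO90* serve to take up phosphate when it is plentiful. The 3 genes moved less evenly, with median log2 fold changes of -0.64, -0.23, -0.13 and -0.54 in the 4 survey comparisons and 0.44 in the last. *PHO87* had 148 reads in wild type, 56 in *Δfpr3*, 89 in *Δfpr4*, 97 in *Δfpr3Δfpr4*, 82 in *Δsir2*, 57 in *Δfpr3Δtrf5* and 60 in *Δfpr3Δfpr4Δtrf5*. It was lower in all 4 survey mutants, with log2 fold changes of -1.35, -0.79, -0.48 and -1.01. *PHO90*, its close relative, was lower in *Δfpr3* (-0.64) and *Δsir2* (-0.54). *PHO91*, the vacuolar transporter, was higher in *Δfpr3* (0.67) and in *Δfpr3Δfpr4Δtrf5* against *Δfpr3Δtrf5* (0.56).

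Of the 9 other cyclins that direct Pho85 to other substrates, 2, 4, 2 and 3 were lower in *Δfpr3*, *Δfpr4*, *Δfpr3Δfpr4* and *Δsir2*, and 0, 0, 1 and 0 were higher. Of all tested genes 8.07%, 9.27%, 9.36% and 14.6% were lower. In *Δfpr3Δfpr4Δtrf5* against *Δfpr3Δtrf5*, 1 was higher and 0 lower. Their median log2 fold changes in the 5 comparisons were -0.61, -0.56, -0.25, -0.53 and 0.24, beside -0.10, -0.10, -0.09, -0.13 and 0.20 over all genes. *CLG1* was lower in all 4 survey mutants, from 176 RPKM in wild type to between 96.2 and 121. *PCL5*, the cyclin for turnover of the transcription factor Gcn4, was lower in *Δfpr3* (-1.02), *Δfpr4* (-0.65) and *Δsir2* (-1.94) and higher in *Δfpr3Δfpr4Δtrf5* (1.81), where it had 117 reads beside 43 in *Δfpr3Δtrf5*. *PCL1*, a G1 cyclin, was lower in *Δfpr4* (-1.13) and *Δfpr3Δfpr4* (-1.14), and the glycogen-related *PCL10* in *Δfpr4* (-1.93) and *Δsir2* (-1.15).

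The 11 other subunits of the Pho23 complex, Rpd3L, gave 1, 0, 0, 0 and 2 higher and 1, 1, 1, 2 and 1 lower calls in the 5 comparisons in the same order, with medians of 0.08, -0.15, -0.26, 0.13 and 0.22. Of all tested genes 4.19% to 20.7% were higher and 7.42% to 14.6% lower in these comparisons, and nothing is read from counts this near to those shares. *RXT3* was lower in *Δfpr3* (-0.92), *Δfpr3Δfpr4* (-0.86) and *Δsir2* (-1.05). The catalytic subunit gene *RPD3* was called in none, with 36.7 to 56.9 RPKM over the 7 libraries. Of the 5 enzymes of inositol pyrophosphates, signals that tell the pathway of phosphate, 0 were called in the 4 survey comparisons, and 1 was higher and 1 lower in the last, with medians from 0.00 to 0.35 in the survey and of 0.66 in the last. Of 4 genes for the transport of Pho4 and for partners of Pho2, 0 were higher in any comparison, and 1, 1, 2, 1 and 1 were lower, with medians between -0.47 and -0.04. *PSE1*, the importin that brings Pho4 into the nucleus, lay between 184 and 213 RPKM in all 7 libraries and was called in none. *MSN5*, the exportin of phosphorylated Pho4, was lower in *Δfpr3Δfpr4* (-0.96) and in *Δfpr3Δfpr4Δtrf5* against *Δfpr3Δtrf5* (-0.86). *SWI5*, another transcription factor that binds with Pho2, was lower in all 4 survey mutants, with values between -0.98 and -0.61.

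Of the 13 listed chromatin factors that act at the *PHO5* promoter, 1, 0, 0 and 1 were higher and 1, 1, 2 and 1 lower in the 4 survey comparisons, and 0 were higher and 1 lower in the last, where 12 had enough reads to be tested. Their medians were -0.15, -0.23, -0.33, 0.01 and -0.07. *SNF6*, a subunit of the SWI/SNF remodeller, was lower in *Δfpr4* (-0.92) and *Δsir2* (-0.82). The histone chaperone gene *RTT106* was higher in *Δfpr3* (0.82) and *Δsir2* (0.70). Of 6 other factors that bind E-box sequences such as CACGTG, 0 were higher and 0 lower in the 3 *FPR* mutants, and 1 was lower in *Δsir2*, while 2 were higher and 1 lower in the last comparison, with medians of -0.02, -0.28, -0.39, -0.12 and 0.31. *CBF1*, the best known of these, had 32.1 RPKM in wild type and 13.6 in *Δfpr3Δfpr4Δtrf5*, and was called in none of the 5 comparisons.

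Of the 5 comparisons, that between the 2 libraries of the cross gave the largest difference of *PHO81* and the largest of *PHO84*. *PHO81* fell by 1.52 on the log2 scale in *Δfpr3Δfpr4Δtrf5* against *Δfpr3Δtrf5* (95% interval -2.11 to -1.06, adjusted p = 2.31e-09, chi-square test), from 155 to 40 reads. *PHO84* fell by 3.78 (-4.15 to -3.46, adjusted p = 1.43e-186, chi-square test), or 13.7-fold. The other 5 regulators lay at 0.46 (*PHO2*), 0.26 (*PHO4*), 0.74 (*PHO80*), 0.50 (*PHO85*) and 0.21 (*PHO23*), none of them called, beside a median of 0.20 over all genes. Of the 8 listed markers of late cultures, 6 had enough reads to be tested in the same comparison. Of these 6, 3 were higher and 0 lower, where 20.7% and 7.42% of all tested genes were. These 3 were *HSP12*, a stress protein gene with 0 reads in *Δfpr3Δtrf5* and 69 in *Δfpr3Δfpr4Δtrf5*, the chaperone gene *HSP26* with 0 and 8, and *HXT7*, a high-affinity hexose transporter gene, with 1 and 7. *HXT7* was also lower in *Δsir2*, with 9 reads beside 29 in wild type. The summed share of reads of all 8 markers was 0.00708% in *Δfpr3Δtrf5*, 0.0183% in *Δfpr3Δfpr4Δtrf5* and between 0.00636% and 0.013% in the 5 others. Without *HSP12* the sum was 58 reads or 0.00708% in *Δfpr3Δtrf5* and 46 reads or 0.00733% in *Δfpr3Δfpr4Δtrf5*. Of the 6 MATa-specific genes, 4 were higher and 1 lower, beside the same 20.7% and 7.42%. The part of these genes' changes in the fall of *PHO81* and *PHO84* was not tested. *PHO81*, with 3537 bases, is the longest of the regulators. The part of gene length and of the reported shift of reads toward gene starts in its fall was not tested either.

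The effect of losing *FPR4* from a *Δfpr3* strain was then compared with and without *TRF5*, a comparison added after the *PHO84* levels were seen. With *TRF5* present, *PHO81* differed by -0.31 on the log2 scale and *PHO84* by -0.06 between *Δfpr3Δfpr4* and *Δfpr3*. These effects are log2 ratios of reads + 0.5 over library totals, so they differ slightly from those of RPKM + 1. The difference of the 2 effects was -1.24 ± 0.29 for *PHO81* (SE from counting, 95% interval -1.81 to -0.67, adjusted p = 0.00017, exact conditional test adjusted by Benjamini-Hochberg) and -3.73 ± 0.17 for *PHO84* (95% interval -4.07 to -3.38). Of 4660 genes with at least 20 reads in the 4 libraries together, 19.9% passed this test, and the median difference was 0.19. Of the regulators only *PHO81* passed. *PHO2* had a difference of 1.55 ± 0.68 that did not (adjusted p = 0.106, exact conditional test). The presence of *TRF5* and the cross from which the strains came cannot be told apart here. The part of gene length in these differences was not tested.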

How the data were processed

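rRNA-depleted RNA of 7 yeast strains was sequenced as paired ends. The study's methods state that the authors aligned reads to sacCer3 with BWA, applied a mapping quality threshold of 5, collapsed duplicated fragments and counted properly paired reads on the proper strand within genes. The authors deposited, for 5110 genes, a raw read count and an RPKM, in a column named for another unit. Recomputed from counts, gene length and total count, the RPKM was off by no more than 0.098% wherever a gene had over 20 reads. Of the genes, 5041 matched the RefSeq R64 annotation by systematic name, 5034 of them with the same start and end.

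The 5 comparisons of 2 libraries followed a form of the methods' rule, a chi-square test (1 degree of freedom), Benjamini-Hochberg adjustment at 0.05 over genes whose summed reads exceeded 5, and 1.3-fold between RPKM + 1. Intervals of ratios come from the exact binomial interval of the reads. Intervals cover counting error only. In these libraries 3 reads, taken as the limit of detection, are 0.000241% to 0.000478% of the counted reads. Homogeneity was tested over genes with an expected count of at least 5 in every library. The added comparison of effects used an exact conditional test of the 4 counts, given the library totals (noncentral hypergeometric), over genes with at least 20 reads. Computations used Python 3.11.15, scipy 1.17.1, numpy 2.4.6 and pandas 2.3.3, and were tested on simulated counts.

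Alternatives were pseudocounts of 0.1 and 5, a median log2 fold change of 0, median-of-ratios size factors, no read filter, RPKM at or above 10 in each library, thresholds of 1.5-fold and 2-fold, an exact binomial test, the fold threshold alone, *Δsir2* as the reference and fewer libraries. Totals without mitochondrial and Pho4 target genes, correlations without *Δfpr3Δfpr4Δtrf5*, and the comparison of effects, also with its median set to 0, were added after seeing the data. The regulators, lists and tests were chosen with earlier results of these data known. Genes named are the 6 regulators and *PHO84*, the 3 genes most like *PHO84* and each regulator that varied over libraries, and, from each list, up to 6 genes called in at least 2 comparisons, with exceptions chosen after their values were seen (*PHM8*, *RPD3*, *PSE1*, *CBF1*, *HSP12*, *HSP26*, and *VTC2*, *GIT1*, *GDE1* and *CTF19* as exceptions to a pattern). Listed deleted genes and MATa genes are summarised only. A gene named by this rule is not reported here.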

Additional observations from a re-analysis of the deposited data

Results flagged for a closer look

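Losing *FPR4* from a *Δfpr3* strain had a different effect on 2 of the genes described here depending on the pair of strains, by a test of the difference itself. For *PHO81* the log2 effect was -1.56 between the *Δtrf5* strains and -0.31 between the strains with *TRF5*, a difference of -1.24. For *PHO84* the effects were -3.79 and -0.06, a difference of -3.73. These are log2 ratios of reads + 0.5 over library totals and differ slightly from the log2 fold changes of RPKM + 1. Each effect is the difference of 1 library from 1 other, the *Δtrf5* strains come from a separate cross, and 19.9% of all tested genes passed the same test. The part of gene length in these differences was not tested, and *PHO81* is the longest of the regulators.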

How the results depend on the processing

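For the regulators, raising the threshold to 2-fold left 1 call in *Δfpr3* (*PHO4*) and 0 in *Δfpr4* and *Δsir2*, and 1.5-fold left 0 in *Δfpr4*. The fold threshold alone, without a test, gave 4 calls in *Δfpr4*, *Δfpr3Δfpr4*, *Δsir2* and the *Δtrf5* comparison. Over all genes, 2-fold gave 197, 199, 218, 352 and 684 calls in the 5 comparisons and the fold threshold alone 1710, 1750, 1857, 1932 and 2577, both by construction. With *Δsir2* as the reference, *PHO81* stood at -0.19, -0.38 and -0.50 and *PHO84* at -0.69, -0.39 and -0.75 in *Δfpr3*, *Δfpr4* and *Δfpr3Δfpr4*. Both genes were highest in *Δsir2*, so these signs were fixed by the choice of reference. The correlation with *PHO84* became, without wild type, 0.40 for *PHO2*. Without wild type and *Δfpr3Δfpr4Δtrf5* it became 0.67 for *PHO2*, -0.05 for *PHO4*, -0.41 for *PHO80*, 0.72 for *PHO81*, 0.03 for *PHO85* and 0.14 for *PHO23*. Without *Δfpr3Δfpr4Δtrf5* alone it became -0.10 for *PHO2*, -0.51 for *PHO4*, -0.35 for *PHO80* and -0.25 for *PHO23*. The cause of these moves was not tested. Pseudocounts, scaling, the read filters and the exact binomial test changed no other call of a regulator than that of *PHO81* in *Δfpr3Δfpr4*, given in the report. No paired analysis was possible because each genotype has 1 library. Depth limits the calls, since 5 of the 6 regulators had at most 60 reads in any library.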
